A study of Rattus norvegicus with 6 samples.

Results

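The genes described here encode the voltage-gated sodium and calcium channels, measured in retinal ganglion cells, the output neurons of the eye. Members were taken from the array's platform annotation as all probe sets with a single gene symbol of the form Scn followed by a digit, or beginning with Cacna, Cacnb or Cacng. This gave 52 probe sets for 36 genes, out of 31042 probe sets and 14217 named genes on the array, and the probe set with the highest mean log2 value stood for its gene. Of the 36 genes, 19 encode pore-forming subunits (9 sodium, 10 calcium) and 17 encode auxiliary subunits (3 sodium, 14 calcium). The samples came from 3 adult male Brown Norway rats in which hypertonic saline was injected into an episcleral vein of 1 eye and pressure was raised for 10 days, with the other eye as its control. All ganglion cells carried Fluorogold injected into the superior colliculus on both sides, and 2000 were collected from each eye by laser capture and hybridised to 1 array. There were 3 arrays of right eyes (OD) and 3 of left eyes (OS). The labels do not say which eye had raised pressure, so every difference below is OS minus OD within a rat, and none can be read as raised minus normal pressure. Were the injected side not the same in all 3 rats, a pressure effect would be averaged with its opposite.

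A voltage-gated sodium channel is built around a large pore-forming alpha subunit, encoded by genes such as Scn1a, whose opening carries the upstroke of the action potential. Small beta subunits with a single membrane span, encoded by Scn2b, Scn3b and Scn4b, modify its gating and surface density and act as adhesion molecules. Calcium channels likewise have a pore-forming alpha1 subunit (the Cacna1 genes), which opens on depolarisation and triggers transmitter release and calcium signalling. It is joined by cytoplasmic beta subunits (Cacnb) and by extracellular alpha2delta subunits (Cacna2d), both of which aid delivery of the channel to the membrane. The gamma genes (Cacng) are a mixed family, since Cacng1 and Cacng6 products associate with calcium channels and Cacng2, Cacng3, Cacng4 and Cacng8 products mainly escort AMPA-type glutamate receptors. In ganglion cells sodium channels are concentrated at the axon initial segment, where spikes begin.

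The sequences before the start sites are shown for 5 members named in the results below. Scn2b and Scn4b are neighbouring genes with mean left-right differences of -1.41 and -0.04. Cacna2d1 and Cacnb2 kept a single direction in all rats, and Cacng3 lay under background throughout. Each sequence is the 250 bases before the annotated start, 5′ to 3′ on the gene's own strand, from RefSeq on build GRCr8. The first-listed start is shown for Cacna2d1 and Cacnb2, which have 3 and 2. Capitals mark matches on both strands to GGGCGG, which is called a GC box, to TATAAA, the core promoter element called a TATA box, and to both arms of the site of the neuronal repressor REST. The left arm was searched as TTCAGCACC, while the right arm was searched as GGACAG.
Scn2b (chr8:54322133-54322382, + strand): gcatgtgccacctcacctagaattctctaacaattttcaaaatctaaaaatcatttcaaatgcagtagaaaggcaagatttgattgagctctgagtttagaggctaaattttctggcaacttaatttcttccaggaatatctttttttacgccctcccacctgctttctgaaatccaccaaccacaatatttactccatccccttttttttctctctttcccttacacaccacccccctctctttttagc
Scn4b (chr8:54343623-54343872, + strand): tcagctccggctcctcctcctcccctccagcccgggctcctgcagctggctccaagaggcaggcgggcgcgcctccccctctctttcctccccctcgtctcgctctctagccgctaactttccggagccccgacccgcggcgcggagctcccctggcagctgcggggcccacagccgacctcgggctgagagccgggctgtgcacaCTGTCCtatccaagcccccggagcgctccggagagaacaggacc
Cacna2d1 (chr4:20330148-20330397, - strand): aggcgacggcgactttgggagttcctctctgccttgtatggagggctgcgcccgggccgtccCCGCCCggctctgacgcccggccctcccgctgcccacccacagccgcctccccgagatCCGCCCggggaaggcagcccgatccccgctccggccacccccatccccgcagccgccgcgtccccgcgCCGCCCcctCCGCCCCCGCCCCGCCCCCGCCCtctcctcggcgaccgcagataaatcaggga
Cacnb2 (chr17:82472965-82473214, + strand): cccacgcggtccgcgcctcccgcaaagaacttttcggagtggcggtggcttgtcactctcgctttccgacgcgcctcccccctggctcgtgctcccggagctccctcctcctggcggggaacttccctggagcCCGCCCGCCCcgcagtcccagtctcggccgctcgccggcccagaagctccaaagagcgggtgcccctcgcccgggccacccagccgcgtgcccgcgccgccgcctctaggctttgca
Cacng3 (chr1:186632312-186632561, + strand): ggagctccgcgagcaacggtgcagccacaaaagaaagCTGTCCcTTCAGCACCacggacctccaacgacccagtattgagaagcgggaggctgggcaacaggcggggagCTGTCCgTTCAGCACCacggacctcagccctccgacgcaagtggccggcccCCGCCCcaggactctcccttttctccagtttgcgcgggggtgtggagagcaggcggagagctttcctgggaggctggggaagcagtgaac

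The Scn2b window is 38.8% G and C with 1 CpG and holds none of the motifs, whereas that of its neighbour Scn4b is 71.6% G and C with 21 CpGs. Cacna2d1 has 7 GC boxes, which overlap each other in part, and Cacnb2 has 2. The Cacng3 window holds 2 copies of TTCAGCACC, each with GGACAG on the other strand 1 base before it. GGACAG does not occur there on the same strand as TTCAGCACC, so the search for exact letters found no whole site. Each TTCAGCACC is followed by acggacct, which shares GGAC with the right arm, and inexact matches were not searched. Among 33469 such windows of the rat annotation, 0.305% hold TTCAGCACC, 18.2% GGACAG, 30.5% a GC box and 12.9% a TATA box. Entries existed for 26 of the 36 members, 29 windows in all, of which 1 (Cacng3) holds TTCAGCACC, 6 GGACAG, 14 a GC box and 2 a TATA box. The median G and C content was 62.8% in members' windows and 51.2% in all. These matches describe the letters only, and binding was not measured.

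The deposited values are probe set intensities on a linear scale, with a trimmed mean near 500.1 on every array. A background limit was set for each array as the 95th percentile of 27 unspiked bacterial control probe sets, and it ran from 261 to 591. Among ganglion cell markers, 8 of 13 measured exceeded the limit on all 6 arrays: Thy1, Nefm, Nefh, Rbpms, Rbpms2, Slc17a6, Gap43 and Ebf1. Genes listed as markers of other cells were also above it on all arrays. These included Gad1, Calb2, Pax6 and Tfap2b from the amacrine list and Rom1 and Pde6b from the photoreceptor list. Otx2 and Pcp2 from the bipolar list and Glul, Rlbp1 and Gfap from the glial list were too. From the other lists, 0 of 8 microglial genes and 0 of 6 pigment epithelial genes were. Whether the listed genes are confined to those cells was not tested. Each array is a pool of captured cells, so fewer cells of a type and less RNA per cell cannot be told apart.

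Of the 36 channel genes, 10 exceeded the limit on all 6 arrays, 17 on some and 9 on none. All 3 sodium beta subunits were above the limit on every array. So were 2 of 9 sodium pore genes, 2 of 10 calcium pore genes and 3 of 14 calcium auxiliary genes. The 10 genes were Scn1a, Scn7a, Scn2b, Scn3b, Scn4b, Cacna1a, Cacna1h, Cacna2d3, Cacnb3 and Cacng2. Over all named genes, 15.7% were above the limit on all 6 arrays and 10.5% on none. In the map of signal relative to the limit, the sodium beta genes form the only class without a single value below it. This holds for the brightest probe set of each gene. The second probe set of Scn2b was above the limit on 0 of 6 arrays and that of Scn3b on 4 of 6.

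**Figure D1:**
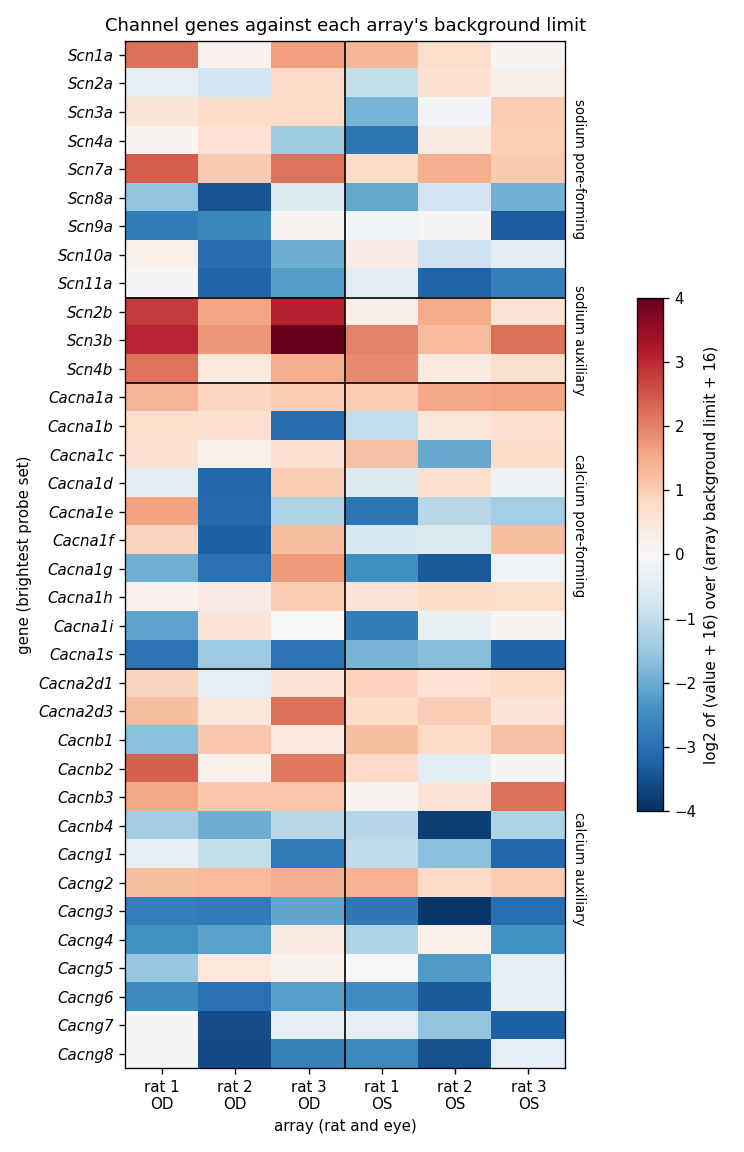
Each cell is 1 channel gene (rows, grouped by class) on 1 array (columns, 3 OD and 3 OS), coloured by log2 of value plus 16 over the array's background limit plus 16, so red is above and blue below the limit. The 3 sodium auxiliary genes are above it on all 6 arrays, and 9 genes, mostly gamma subunits, on none.

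The 9 genes that never exceeded the limit were Scn8a, Scn11a, Cacna1s, Cacnb4, Cacng1, Cacng3, Cacng6, Cacng7 and Cacng8. Scn8a encodes the sodium channel that predominates at mature initial segments and nodes, and its single probe set read between 39.6 and 314.6, so its level is given here only as a bound. Scn11a belongs to pain-sensing neurons, Cacna1s and Cacng1 to the skeletal muscle channel. Scn4a, the skeletal muscle sodium channel gene, nevertheless exceeded the limit on 4 of 6 arrays, with 275.2, 882.5 and 99 in OD and 39.2, 712.6 and 804.5 in OS of rats 1 to 3. The gamma family was the dimmest against the limit: 5 of 8 genes never exceeded it and Cacng2 alone always did.

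Differences between eyes were tested with limma on log2(value + 16), with rat as a block, over the 15521 probe sets at or above the median brightness. The added 16 understates changes of dim genes. Of the 36 channel genes, 20 were bright enough to be tested (11 pore-forming, 9 auxiliary), and none passed an adjusted p of 0.05 by limma. Over all tested probe sets 0.0129% passed, and 0.0116% of the 8594 tested genes. Scn2b was the 1 channel gene of 20 with an unadjusted p under 0.05, against 6.94% of tested genes. The direction was the same in all 3 rats for 6 of the 20 channel genes, 3 lower and 3 higher in OS. Among all tested genes this held for 28.7%, with 15.6% lower and 13.1% higher.

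All 3 sodium channel beta genes had mean differences below 0, though Scn4b was near 0 and turned to 0.017 after quantile normalization, and none passed the adjusted test. Scn2b, whose product is bound covalently to the alpha subunit, read 1924, 1795.5 and 2601.7 in OD of rats 1 to 3 and 485.2, 1562.3 and 600.6 in OS. The 3 OS values all lay below the OD values, by much in rats 1 and 3 and narrowly in rat 2. The mean log2 difference was -1.41 ± 1.05 (SD, n = 3 rats), with a 95% interval from the limma fit of -2.56 to -0.26 and a limma adjusted p of 0.61. This interval is not adjusted for the number of genes, and it was the only 1 among the 20 that did not include 0. Without rat 2 the difference was -2.02, and with the mean of both probe sets it was -0.30. The second Scn2b probe set differed by 0.81 ± 1.68 but stayed under the background limit on all 6 arrays.

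Scn3b, which encodes a beta subunit held non-covalently, read 2257.4, 1997.4 and 5720.8 in OD and 1637.9, 1339.4 and 1923.3 in OS. The eyes did not overlap here either, and the OD array of rat 3 stood well above the rest. Its difference was -0.86 ± 0.61 (limma adjusted p = 0.744), and -0.51 without rat 3. Its second probe set had a like mean, -0.88, but differed by 0.17, 0.04 and -2.86 in rats 1 to 3, so that mean came from rat 3 and the other rats were slightly higher in OS. Scn4b, the neighbour of Scn2b and the subunit linked to resurgent current, read 1234, 792.1 and 833.7 in OD and 1538.2, 717.1 and 683.8 in OS. Its eyes overlapped, with OS higher in rat 1 and slightly lower in rats 2 and 3, and the difference was -0.04 ± 0.31. Its 95% interval of -1.26 to 1.18 leaves room for more than a 2-fold difference either way. Among all tested genes the eyes did not overlap for 5.70% with OS lower and 4.79% with OS higher. Of the 20 channel genes this held for 2 lower, Scn2b and Scn3b, and 1 higher, Cacna2d1.

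**Figure D2:**
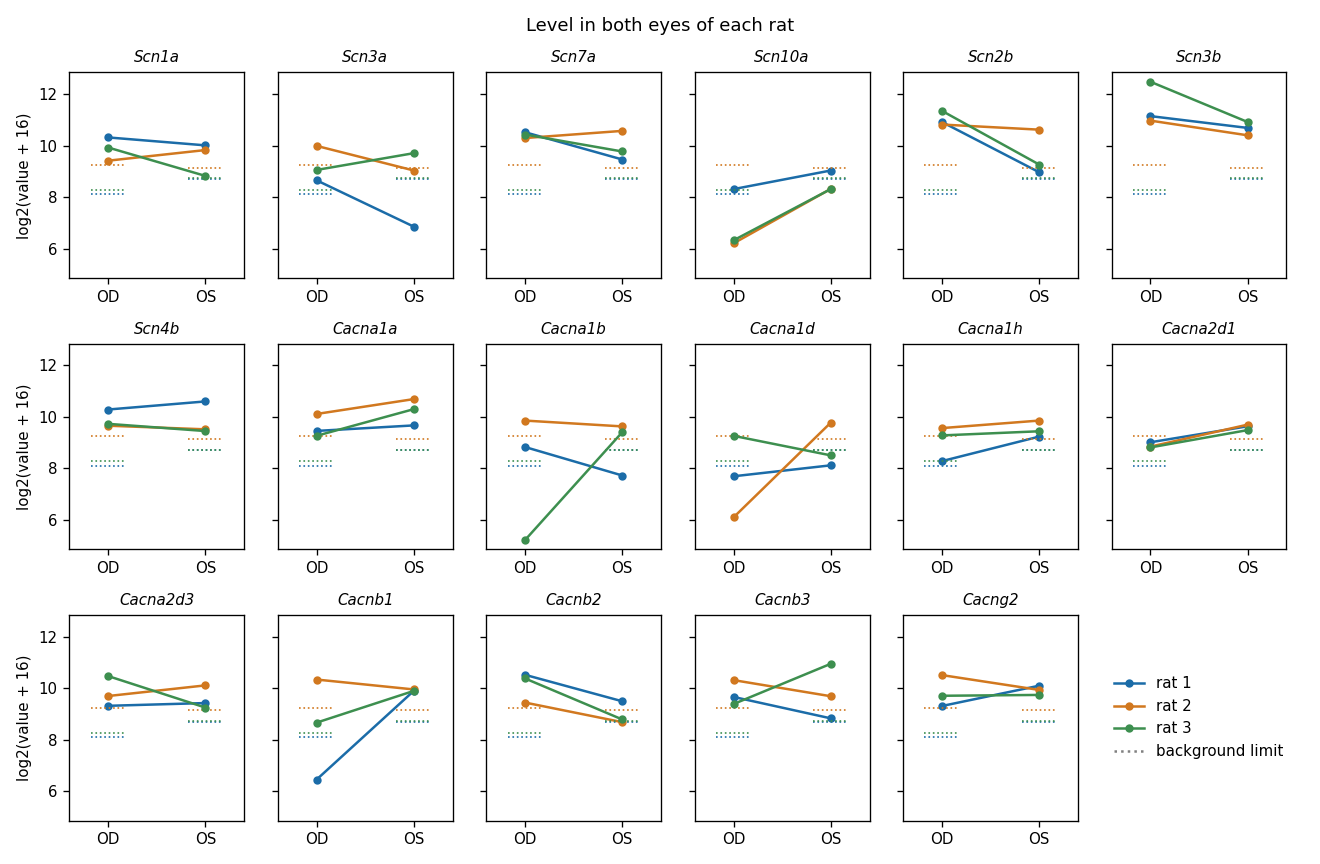
Each panel shows 1 of the 17 channel genes given with values on every array, as log2(value + 16) in OD and OS, with a line joining the eyes of a rat and dotted bars at that array's background limit. Scn2b and Scn3b slope down and Cacna2d1 slopes up in all 3 rats, while the lines of Cacna1b, Cacna1d and Cacnb3 cross.

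Sodium pore-forming genes showed no shared direction. Scn1a, a main alpha subunit of inhibitory neurons, read 1264, 668.4 and 958.9 in OD and 1018, 895.2 and 438 in OS. It was lower in OS in rats 1 and 3 and higher in rat 2, with a difference of -0.33 ± 0.76 (limma adjusted p = 0.933), and 0.05 without rat 3. Scn3a, best known from developing and injured neurons, read 387, 1002.8 and 517.2 in OD and 99.7, 509.2 and 822 in OS. Rats 1 and 2 were lower in OS and rat 3 higher, and the difference was -0.70 ± 1.25. With 1 rat left out it ran from -1.38 (without rat 3) to -0.15 (without rat 1). Scn7a encodes an atypical channel that senses extracellular sodium and is not gated by voltage in the usual way. It read 1455.7, 1243.8 and 1368.3 in OD and 690.4, 1510.9 and 860.5 in OS, a difference of -0.48 ± 0.69, with rat 2 opposite to the others. It was -0.86 without rat 2 and -0.19 without rat 1.

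Scn10a, the alpha subunit of nociceptors that resists tetrodotoxin, was too dim for the test. It read 302.1, 57.8 and 64.1 in OD and 509.1, 303.8 and 302.3 in OS. OS was higher in 3 of 3 rats, by 1.61 ± 0.77, but only the 2 arrays of rat 1 exceeded their background limit, so this size carries little information. Scn2a, whose product serves immature axons and unmyelinated segments, differed by 0.40 ± 0.76, Scn4a by 0.04 ± 2.63, and Scn8a and Scn9a, both too dim to test, by 0.59 ± 1.80 and 0.92 ± 3.39. Of the sodium pore genes, 5 lie close together on chromosome 3: in the GRCr8 annotation Scn3a and Scn2a are neighbours, 4 protein-coding genes follow before Scn1a, and Scn1a, Scn9a and Scn7a are neighbours. Their differences went both ways within this cluster.

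The calcium pore-forming genes read higher in OS on average in 5 of 6 tested genes, with none past the threshold. Of all 8594 tested genes, 3982 were higher. Cacna1a, the P/Q-type channel that drives transmitter release at many central synapses, read 686.2, 1092.9 and 600.1 in OD and 798.7, 1639.7 and 1247.1 in OS. OS was higher in each rat although the eyes overlapped, and the difference was 0.61 ± 0.41 (limma adjusted p = 0.856), or 0.40 without rat 3. Its other 4 probe sets were too dim to test and ran from -1.25 to 0.45. Cacna1h, a T-type channel that opens near resting potential, read 295.4, 741.8 and 606.2 in OD and 586.5, 912 and 679.6 in OS, again higher in each rat. The difference was 0.47 ± 0.42 (limma adjusted p = 0.91), and 0.23 without rat 1. Its second probe set also had a mean of 0.47, but differed by -0.04, -0.12 and 1.57 in rats 1 to 3, so that mean came from rat 3 and the other rats were slightly lower in OS.

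Among the other calcium pore genes, the sign of the mean hung on 1 rat in Cacna1b and Cacna1d. Cacna1b, the N-type channel, read 439, 911.5 and 21.2 in OD and 195.3, 777 and 663 in OS. The low OD value of rat 3 made the mean difference 0.95 ± 2.84, and it was -0.67 without that rat. Cacna1d, an L-type channel that opens at relatively negative voltages, read 190.9, 52.4 and 599.1 in OD and 261.9, 860.7 and 347.5 in OS. Its difference of 1.12 ± 2.30 came from rat 2 and was -0.17 without it. Cacna1c, the L-type channel of heart and brain, gave -0.20 ± 1.85. Cacna1f, the L-type channel of photoreceptor terminals, gave 0.70 ± 1.77 and exceeded the limit on 3 of 6 arrays. Cacna1e, Cacna1g, Cacna1i and Cacna1s were too dim to test, and their differences lay between -0.59 and 0.50.

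**Figure D3:**
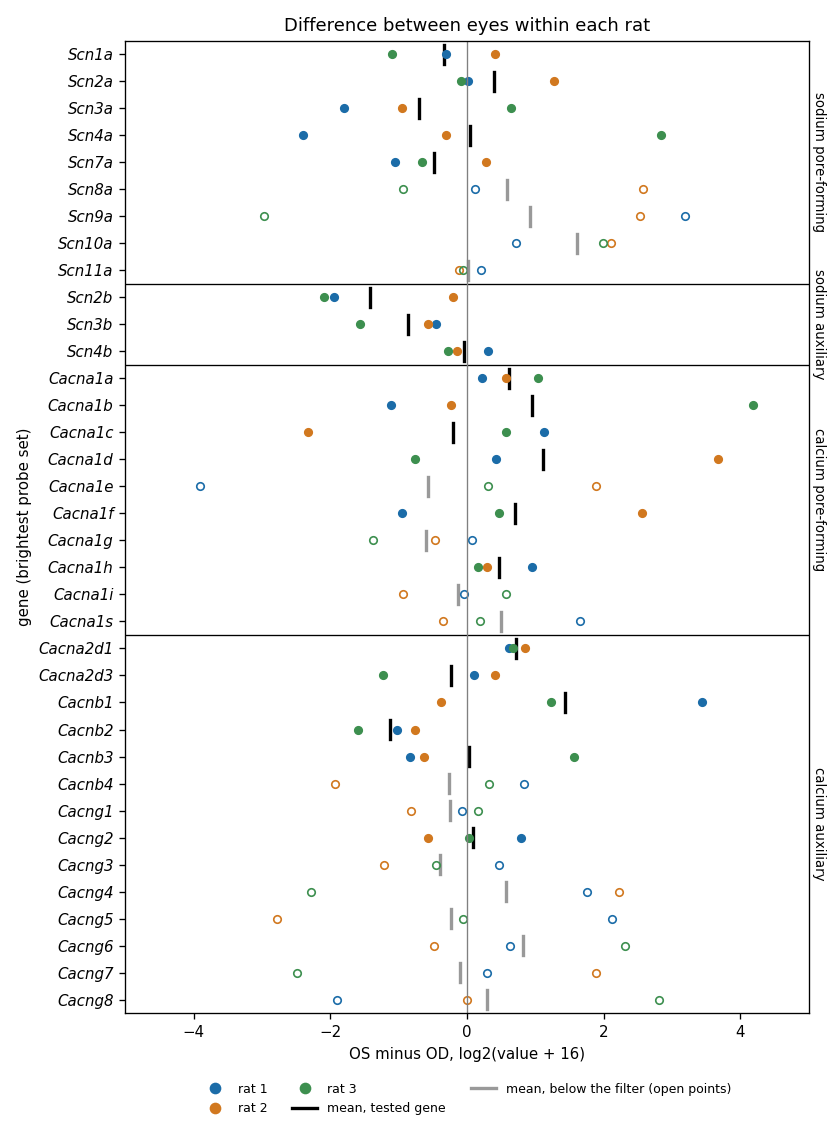
OS minus OD on log2(value + 16) for all 36 channel genes, grouped by class, with 1 point per rat and a bar at the mean; open points and grey bars are the 16 genes too dim to test. Points of Scn2b, Scn3b and Cacnb2 all lie left of 0 and those of Cacna1a, Cacna1h, Cacna2d1 and the untested Scn10a right of it, while the points of the other genes do not all share a side.

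Cacna2d1 encodes the alpha2delta subunit to which gabapentin binds. It read 501.4, 444 and 434.1 in OD and 779.6, 815.7 and 701.8 in OS, so the eyes were apart and the spread within each eye was small. The difference of 0.72 ± 0.12 had the smallest SD of the 20 tested genes. Its limma adjusted p was 0.862 and its 95% interval -0.76 to 2.20, since limma pools the variance over probe sets of like brightness. Leaving out any rat kept it between 0.65 and 0.76. The OD array of rat 2 lay under its background limit. Cacna2d3, another alpha2delta gene, read 619.8, 811.7 and 1399.6 in OD and 668.8, 1086.3 and 590.5 in OS. Rat 3 went against the others, giving -0.23 ± 0.87, and 0.26 without rat 3.

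The calcium channel beta genes had no shared sign. Cacnb2, the beta subunit used at photoreceptor synapses and in heart, read 1448.5, 677.7 and 1311.7 in OD and 702.3, 393.2 and 423.9 in OS. OS was lower in 3 of 3 rats, at -1.13 ± 0.42 (limma adjusted p = 0.776), though the OD value of rat 2 lay below the OS value of rat 1. Its second tested probe set gave 0.41 ± 1.31, the opposite sign, and the third, too dim to test, -1.35. With Scn2b it made 2 of 20 channel genes that were at least 2-fold lower and alike in all rats, against 8.60% of tested genes. No tested channel gene was so in the other direction, against 6.57%.

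Cacnb1 read 71.3, 1273.8 and 388.3 in OD and 936.2, 972 and 934.5 in OS. The OS values were nearly equal and the OD values spread widely, and the difference of 1.43 ± 1.92 (limma adjusted p = 0.766) was 0.42 without rat 1 and 2.34 without rat 2. Cacnb3, a beta subunit common in neurons, read 791.5, 1254.5 and 650.9 in OD and 437.6, 807.1 and 1955.2 in OS. It was lower in OS in rats 1 and 2 and higher in rat 3, for a mean of 0.04 ± 1.33 and -0.73 without rat 3. Cacng2, the AMPA receptor escort also called stargazin, read 616.7, 1437.8 and 817.3 in OD and 1077.2, 959.1 and 836.4 in OS. Its difference was 0.08 ± 0.68, and its second probe set gave -0.75. The other 7 gamma genes and Cacnb4 were too dim to test, and their differences lay between -0.40 and 0.82. Neighbouring gamma genes (Cacng6, Cacng8 and Cacng7, and Cacng1, Cacng4 and Cacng5) did not share a direction.

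Pore-forming and auxiliary subunits can be set side by side by their medians, which are descriptions, because genes are not replicates. The 11 tested pore-forming genes had a median difference of 0.40, 4 lower and 7 higher in OS. The 9 auxiliary genes had -0.04, 5 lower and 4 higher, and all 8594 tested genes had -0.07, 4612 lower and 3982 higher. By rat, the medians were -0.31, 0.29 and 0.47 for pore-forming genes and 0.11, -0.38 and -0.28 for auxiliary genes, so the order of the classes was reversed in rat 1. The order also depended on which rats were included. Without rat 1 the medians were 0.59 for pore-forming and -0.27 for auxiliary genes, without rat 2 they were -0.03 and 0.02, and without rat 3 they were 0.05 and 0.09. Over all 36 genes, with no filter, the medians were 0.40 and -0.11. With a filter at the 75th percentile they were 0.07 and -0.04, and with the mean of a gene's probe sets 0.04 and -0.27.

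Split by ion, the 8 tested sodium channel genes had a median of -0.41 and the 12 calcium channel genes 0.54. Sodium was below calcium in each rat, at -0.76, -0.17 and -0.47 against 0.32, 0.03 and 0.52. In OS, 6 of 8 sodium genes were lower and 9 of 12 calcium genes higher on average, counting Scn4b and Cacnb3, whose signs turned after quantile normalization. Over all 8594 tested genes, 4612 were lower and 3982 higher. With 1 rat left out, the sodium median ran from -0.64 (without rat 2) to -0.20 (without rat 1) and the calcium median from 0.33 (without rat 3) to 0.48 (without rat 2). With no filter the medians were -0.01 and 0.06, so this contrast was present among the bright genes and not over all 36.

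**Figure D4:**
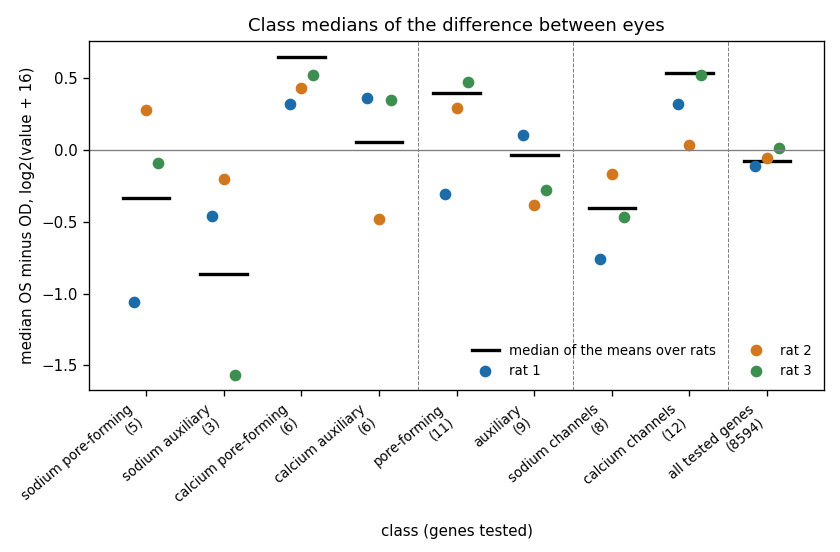
Median OS minus OD on log2(value + 16) over the tested genes of each class, with 1 point per rat and a bar at the median of the means over rats; numbers in brackets are genes. Sodium channels lie below 0 and calcium channels above it in all 3 rats, while pore-forming and auxiliary classes change order in rat 1.

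Probe sets of 1 gene often gave different answers. Of 11 channel genes with several probe sets, 5 had both signs (Cacna1a, Cacna1d, Cacnb2, Cacng2 and Scn2b). Of the 4 with more than 1 tested probe set, Cacnb2 and Cacng2 had means of both signs. Cacna1h and Scn3b had means of a single sign, but within rats 1 and 2 the signs of their probe sets differed.

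**Figure D5:**
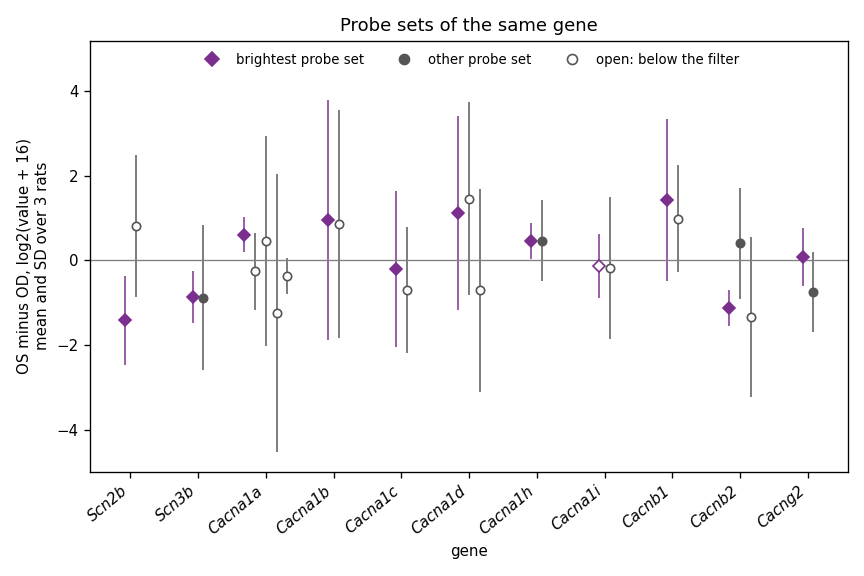
OS minus OD on log2(value + 16), mean and SD over 3 rats, for every probe set of the 11 channel genes with more than 1; diamonds are the brightest probe set and open symbols were too dim to test. The means of the Cacna1h and Scn3b probe sets lie side by side, with wider bars for the second of each, while Scn2b and Cacnb2 have probe sets on both sides of 0.

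Variation between animals was tested with the F test for rat in the same limma fit. None of the 20 channel genes passed an adjusted p of 0.05, and none had an unadjusted p under 0.05. Over all tested genes 1.29% passed the adjusted and 10.9% the unadjusted threshold. Cacnb1 came closest, with means of 8.17, 10.14 and 9.28 on the log2 scale in rats 1 to 3 (limma F test, adjusted p = 0.602). The within-rat differences of the 20 genes had a median SD of 0.81, against 1.10 over all tested genes.

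Partner genes, which anchor, bind or regulate these channels, were taken as a list of 47, of which 43 were measured and 31 tested. None passed by limma, and 6 of the 31 had an unadjusted p under 0.05, against 6.94% of all tested genes. OS was lower on average in 20 and higher in 11, with a median of -0.36. Of all 8594 tested genes, 4612 were lower and 3982 higher, with a median of -0.07. Fgf12, a cytoplasmic binding partner of sodium channels, read 1078.5, 350.5 and 2521.2 in OD and 233.5, 46.9 and 342.5 in OS. The eyes were apart (limma adjusted p = 0.535), but all 3 OS arrays and the OD array of rat 2 lay at or below their background limits. OD was 2.17-fold higher when its mean was set against OS values raised to the background limit wherever they were lower. This is not a lower bound, because the OD value of rat 2, itself under its limit, was taken as read. Another tested probe set differed by -1.63 ± 3.22, with rat 2 opposite. A further probe set, too dim to test, had a mean of 1.07, with differences of -0.41, -0.33 and 3.96 in rats 1 to 3.

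Unc79, part of the sodium leak channel complex, had a probe set at -1.08 ± 0.23 (limma adjusted p = 0.59) and another at 1.10 ± 0.30, each apart between the eyes in all rats but in opposite directions. Snap25, a release protein that binds calcium channels, differed by -1.81 ± 0.46 (limma adjusted p = 0.282). Gnb1, a G protein subunit of the kind that inhibits N- and P/Q-type channels, differed by 1.47 ± 0.76, while its other tested probe set gave -1.51 ± 1.60. For their place at the initial segment, and with values already seen, further partners are given. Ank3, the ankyrin that anchors sodium channels at the initial segment, gave -0.48 ± 1.76, and Nfasc, a neurofascin there, -1.17 ± 0.81. The Ank3 mean came from rat 3 (-2.51), while rats 1 and 2 were higher in OS (0.62 and 0.46). Sptbn4 gave -0.60 ± 1.23, and Nrcam went the other way at 0.22 ± 0.51. Other listed partners went either way, such as Cntnap2 at 0.55 ± 1.31, Cntn2 at 0.11 ± 0.61, Fgf13 at 0.36 ± 1.99 and Fgf14 at -0.28 ± 2.15.

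Some sample properties moved with the eye beside these values. Ganglion cell markers were lower in OS in 11 of 12 tested genes, with a median of -0.71, against 4612 of all 8594 tested genes. Their summed level was 27461 to 41415 in OD and 18130 to 24587 in OS. Genes of the amacrine list summed to 27963 to 72852 in OD and 12619 to 24454 in OS, with Chat and Tfap2a under the limit on all arrays. Of the 6 tested genes of this list, 4 were lower in OS on average. The 2 higher were Slc6a9 (0.72 ± 2.45) and Th (0.09 ± 1.44). Pigment epithelium markers summed to 6483 to 35651 in OD and 2257 to 4798 in OS, but rat 2 differed from the others. Its median difference for this list was 0.19, with Rpe65, Tyrp1, Tyr and Pmel higher in OS and only Dct and Ttr lower, against medians of -2.19 and -1.59 in rats 1 and 3. Sums of photoreceptor, bipolar, glial and microglial markers overlapped between the eyes. All 5 tested bipolar genes were nevertheless higher in OS on average, 3 of them in each rat, with a median of 0.24. None of the genes in these lists passed the adjusted limma test. The beta-actin control's 3′ signal relative to its 5′ signal exceeded that of OD in each rat, with a mean log2 gap of 1.32 ± 0.52. The same measure for the Gapdh control did not follow the eye: its gaps were 0.29, 0.90 and -2.58 in rats 1 to 3, with a mean of -0.46 ± 1.86. The part of these in the channel differences was not tested.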

How the data were processed

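RNA of 2000 laser-captured retinal ganglion cells per eye was isolated, amplified linearly and labelled for 1-colour Affymetrix arrays, per the labels' protocols, and GCOS is the tool that the submitters' processing notes name, without a version. What was deposited is an intensity for each probe set, linear and without detection calls. Their 2% trimmed means were equal on all arrays, so they were taken as scaled already and not normalized further. Probe sets were named from the platform annotation (1 symbol 20826, several 436, none 9780), and 57 controls were left out. All 36 member identifiers were found in the RefSeq gene table (GRCr8), with 0 symbols changed.

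Arrays were grouped by eye from the titles. The main fit was limma 3.58.1 in R 4.3.3 on log2(value + 16), with rat as a fixed block because both eyes come from 1 animal, an intensity trend in eBayes, two-sided tests and Benjamini-Hochberg adjustment over 15521 probe sets at a threshold of 0.05. It had 2 residual and 19.4 prior degrees of freedom. Deviations of the 2 eyes of a rat correlated at 0.109, 0.122 and 0.326 in rats 1 to 3 over tested probe sets. Values on each array are given for members past the threshold, above background on all 6 arrays, at least 2-fold apart and alike in all rats, or among the 3 smallest p-values of their class. With 3 rats only large differences can pass, and the number of arrays limits the precision. Labels do not give batches. Members and lists were chosen with earlier results of these data known.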

Additional observations from a re-analysis of the deposited data

How the results depend on the processing

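Alternatives were an offset of 1 or 64, quantile normalization, no filter or one at the 75th percentile, no replicate block, rat as a random replicate block, no trend, the mean of a gene's probe sets, and each rat left out. The count of channel genes past the threshold between eyes was 0 under each of these, including 0 without the replicate block and 0 to 0 with 1 rat left out, and the count between rats was 0 under each alternative that could give it. Across these, adjusted p-values of Scn2b ran from 0.2 to 0.958 and its difference from -2.02 to -0.30. Class medians moved, among other changes, as follows. With an offset of 64 the calcium pore-forming median was 0.55. With no filter it was 0.49, sodium channels were at -0.013 and calcium channels at 0.058. Sodium pore-forming genes changed sign there, from -0.33 to 0.044. At the 75th percentile calcium pore-forming genes were at 0.54 and calcium channels at 0.28. All pore-forming genes were at 0.068 there, against 0.40 in the main fit. With the mean of probe sets calcium channels were at 0.035 and all members at -0.23. Pore-forming genes were then at 0.044, calcium auxiliary genes at -0.23 (main fit 0.058) and sodium auxiliary genes at -0.30 (main fit -0.86). With 1 rat left out, medians ran from 0.51 to 1.13 for calcium pore-forming and from -0.034 to 0.59 for pore-forming genes. Some single genes changed sign: Cacnb3 (-0.044) and Scn4b (0.017) after quantile normalization, and Cacng2 (-0.34) and the partner Unc79 (0.0066) with the mean of probe sets. With 1 rat left out, differences ran from -0.67 to 1.98 for Cacna1b, -0.17 to 2.05 for Cacna1d, -0.56 to 0.26 for Cacna2d3, -0.73 to 0.47 for Cacnb3, -0.27 to 0.41 for Cacng2, -0.71 to 0.053 for Scn1a and -0.21 to 0.087 for Scn4b. The causes were not tested beyond the changed set of genes or samples. The background limit bounds what the arrays show for the 26 genes not above it throughout.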
